A study of Mus musculus with 36 samples.

Results

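The 66 genes described here carry symbols of cytosolic ribosomal proteins, though 1 of them, Rps4l, is annotated as a transcribed processed pseudogene. They are the Ensembl identifiers whose mouse symbol is Rpl or Rps with a number and at most one letter a, l or x, or Rplp0 to Rplp2 or Rpsa, without the pseudogenes marked -ps, and whose mean over all 36 libraries reached 1 CPM (counts divided by the library's total and scaled to the same depth in each library). Of 52636 identifiers, 83 matched the symbol rule and 66 of these reached 1 CPM, 39 of the large and 27 of the small subunit, spread over 19 chromosomes. Rps13 lay just inside the threshold at 1.00 CPM and Rpl11 just outside it at 0.890 CPM. All 66 members passed the filter on low counts and were among the 15497 genes tested.

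Each ribosomal protein gene gives one building block of the small or the large subunit, and the proteins are made in matched amounts and assembled with ribosomal RNA in the nucleolus. Their mRNAs start with a run of pyrimidines, the 5′ terminal oligopyrimidine (TOP) motif, through which mTORC1 and the RNA-binding protein Larp1 control their translation, while Myc raises their transcription. In the intestine, ribosome production is high in the dividing cells of the crypt and lower in differentiated cells. Mammalian genomes hold many processed pseudogenes of these genes, which are copies without introns.

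The libraries came from intestinal organoids, grown from jejunal crypts of C57BL/6 mice, that were kept for 2 days in one of 6 conditions with 6 libraries each. The conditions were complete organoid media with IgG, media conditioned by quiescent (QCM) or by senescent (SCM) mouse embryonic fibroblasts with IgG, SCM with an antibody against the receptor Ptk7, and complete media with the noncanonical Wnt ligand Wnt5a, with IgG or with anti-Ptk7. The crypts of all groups were wild type as far as the labels go, and the number of mice behind them is 6. None of the 6 groups held anti-Ptk7 in complete media alone or in QCM, so the antibody's own effect was not tested. The comparisons of QCM, SCM and Wnt5a with complete media share the same 6 complete media libraries. The libraries held between 9581589 and 21029769 counts, of which 26764 to 107861 fell on the 66 members. Epithelial markers were high in every library (Epcam between 1839 and 3718 CPM), while of 9 fibroblast genes Col3a1, Thy1 and Dcn had no count in any, Fn1 reached 54.99 CPM, Pdgfrb 6.43 CPM and the other 4 at most 1.27 CPM. In such bulk RNA, fewer cells of a type and less RNA per cell cannot be told apart, and p-values measure the spread between the 6 libraries of a group.

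Members differed widely in how much of their sequence is their own. The reads were 50 bases long, so each 50-base window of a coding sequence was looked up in the annotated transcripts of all other genes. In the median member, 13.1% of the windows occurred in no other gene, and 17 members had no such window, whereas the median protein-coding gene tested had 100% (12449 genes). Only 13 members, 19.7%, had at least 50% of their windows to themselves, against 94.4% of the coding genes. They included Rpl8, Rps3, Rps27l, Rpl32, Rpl4, Rps9, Rpl22, Rpl41, Rps15, Rps21 and Rps4l, and the 13 held 72.7% of the counts of the set. For Rps4l, annotated as a pseudogene, the windows and the length were those of its whole transcript of 943 bases. Per kilobase of coding sequence, the levels of the 13 ranged from 58.6 (Rps4l) to 935 CPM with a median of 326. The other 53 ranged from 1.58 to 464 CPM with a median of 14.7. Across the 66 members, level per kilobase and the share of unique windows had a Spearman correlation of 0.74, given as a description, since members share reads with the same copies. The order of the members by level is therefore not read as an order of mRNA abundance, and the comparisons below set each member against itself in another group.

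**Figure D1:**
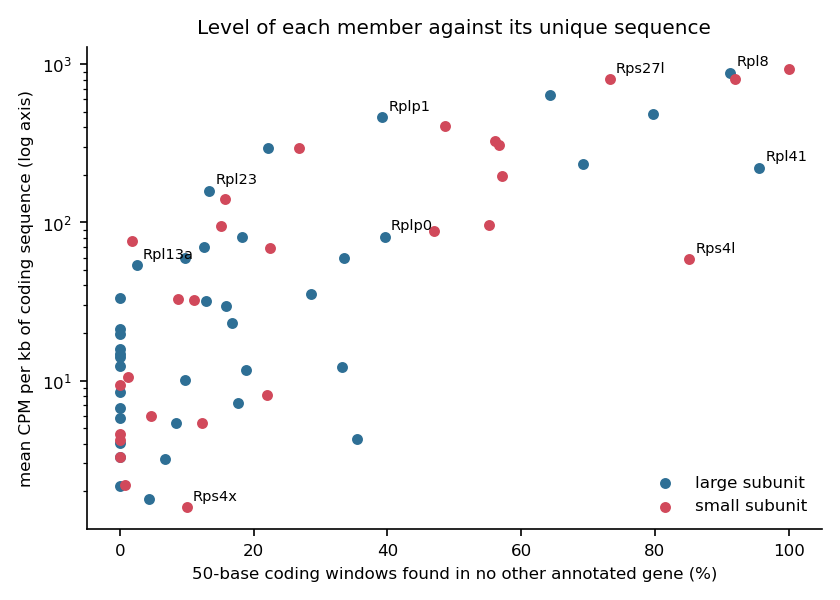
Mean CPM per kilobase of coding sequence over 36 libraries (log axis) against the share of 50-base coding windows found in no other annotated gene (%), one point per member, coloured by subunit. For Rps4l the whole transcript was used. Rpl8, with 91.3% unique windows, lay at 886 CPM per kilobase, and the members with 0% did not exceed 33.4.

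Rps13 and Rps4x show how close, or how far, such copies can be. The first coding window of Rps13 within one exon (GRCm38, chr7:116333725-116333774, minus strand, exon 3) and the matching bases of its single-exon copy Rps13-ps2 (chr7:88530777-88530826, minus strand) are identical, whereas Rps4x (chrX:102188322-102188371, minus strand, exon 2) and Rps4l (chr6:148354713-148354762, plus strand) differ at the 7 bases in capitals.
Rps13: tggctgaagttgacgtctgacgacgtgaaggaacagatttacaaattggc
Rps13-ps2: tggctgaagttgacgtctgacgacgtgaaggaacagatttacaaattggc
Rps4x: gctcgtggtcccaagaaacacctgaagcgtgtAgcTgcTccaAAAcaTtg
Rps4l: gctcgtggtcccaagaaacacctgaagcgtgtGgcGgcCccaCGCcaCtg
Of the 407 windows of Rps13, 404 occurred in Rps13-ps2, and the counts stood at a mean of 1.00 CPM for the gene and 40.5 CPM for the copy. Rpl3, which shared 1060 of its 1163 windows with Rpl3-ps1, had 2.16 CPM against 33.97 CPM for the copy. Rpl14 shared 471 of 605 windows with Rpl14-ps1, at 192 CPM and 231 CPM. Rps4l, which the annotation lists as a transcribed processed pseudogene although its symbol meets the rule, shared none of the 743 windows of the X-linked Rps4x and had 55.2 CPM against 1.26 CPM. The 291 identifiers marked -ps summed to a mean of 408 CPM, beside 4952 CPM for the members, and how reads that match a member and a copy were counted is not given in the sources used here.

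Promoters were taken from RefSeq (GRCm38.p6), which gave one for 48 of the 66 members. The 60 bases from 40 before to 20 after the start are shown for members that changed in the comparisons below, with runs of at least 8 pyrimidines (C or T, sense strand only) in capitals. They are Rpl13a (chr7:45128726-45128785, minus strand), Rps10 (chr17:27635225-27635284, minus strand), Rpl15 (chr14:18270967-18271026, minus strand), Rpl14 (chr9:120571477-120571536, plus strand), Rpl37a (chr1:72711220-72711279, plus strand) and Rpl31 (chr1:39367811-39367870, plus strand).
Rpl13a: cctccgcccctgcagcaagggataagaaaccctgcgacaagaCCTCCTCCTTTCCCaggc
Rps10: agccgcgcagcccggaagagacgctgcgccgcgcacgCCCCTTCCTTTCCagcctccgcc
Rpl15: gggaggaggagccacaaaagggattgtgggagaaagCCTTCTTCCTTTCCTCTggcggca
Rpl14: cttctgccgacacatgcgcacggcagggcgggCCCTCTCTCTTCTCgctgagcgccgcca
Rpl37a: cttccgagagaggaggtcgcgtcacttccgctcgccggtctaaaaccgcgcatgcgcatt
Rpl31: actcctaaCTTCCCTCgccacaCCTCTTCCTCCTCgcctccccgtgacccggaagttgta
Such a run was present in 30 of the 48 members (62.5%), in 26.2% of the 10482 tested genes with a promoter and in 24.2% of all 32851 promoters. Rpl13a, Rps10, Rpl15, Rpl14 and Rpl31 held one and Rpl37a none, which describes the letters of these windows only. The Rpl37a window ends before the gene starts in the GENCODE annotation (72711290), so it holds no base of that annotated gene.

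The summed level of the set differed between the groups. Members took 0.529% ± 0.0379 (SD, n = 6) of the counts in complete media, 0.649% ± 0.0436 in QCM, 0.557% ± 0.0573 in SCM, 0.474% ± 0.0597 in SCM with anti-Ptk7, 0.412% ± 0.0578 in Wnt5a and 0.350% ± 0.0759 in Wnt5a with anti-Ptk7. The QCM libraries, from 0.600% to 0.715%, lay above all complete media libraries but one, which reached 0.602% while the other 5 lay between 0.495% and 0.529%. All 6 Wnt5a libraries, from 0.322% to 0.466%, lay below the complete media range. The share in Wnt5a with anti-Ptk7 ran from 0.219% to 0.433% and overlapped that of Wnt5a. The 13 members with mostly unique windows followed the same order of groups, from 4680 CPM ± 310 summed in QCM to 2595 CPM ± 558 in Wnt5a with anti-Ptk7. Both subunits did too at the ends of the order, with large subunit genes at 0.326% of the counts in QCM and 0.172% in Wnt5a with anti-Ptk7, and small subunit genes at 0.323% and 0.178%.

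**Figure D2:**
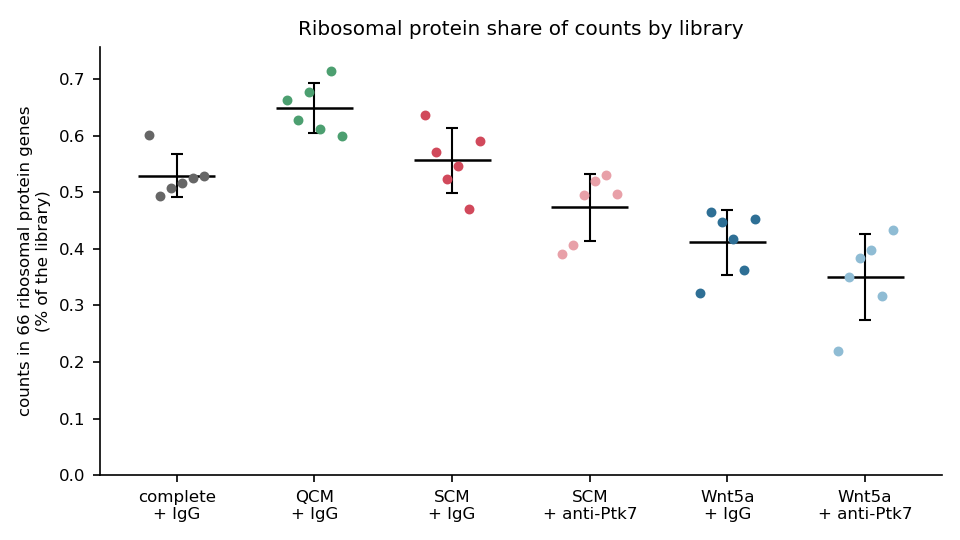
Share of each library's counts that fell on the 66 members (%), by group, with points for the 6 libraries, horizontal lines for the mean and bars for the SD. The means fell from 0.649% in QCM to 0.350% in Wnt5a with anti-Ptk7.

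Most members varied between the 6 conditions. In a test of any difference among the groups (edgeR quasi-likelihood test, Benjamini-Hochberg adjusted p under 0.05 over all genes tested), 50 of the 66 members were called, 75.8%, against 39.5% of all genes. The smallest adjusted p values belonged to Rpl13a (2.91e-09), Rps9 (1.23e-08), Rps19 (1.38e-08) and Rplp1 (1.78e-08). The 16 members not called included the low-count genes Rps13, Rps16, Rps29, Rps4x and Rpl10. The group with the highest mean CPM was QCM for 42 members, SCM for 22 and complete media for 2, and the lowest was Wnt5a with anti-Ptk7 for 62 members.

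**Figure D3:**
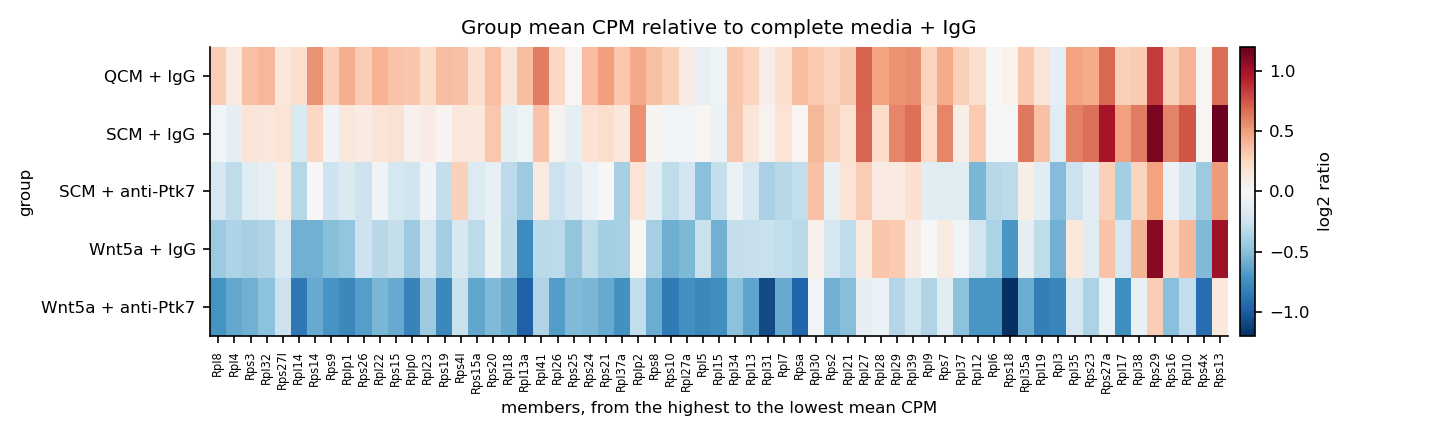
Mean CPM of 63 members (columns, from the highest to the lowest mean CPM) in 5 groups (rows), as the log2 ratio to complete media with IgG. QCM was above complete media for most members, Wnt5a with anti-Ptk7 below it for most, and the members with the fewest counts, at the right, stood higher in SCM than the others did.

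Members with many counts and mostly unique windows are given here by group. Rps3, which guards the mRNA entry channel, had lowest and highest values of 563 and 718 CPM in complete media, 733 and 863 CPM in QCM and 341 and 553 CPM in Wnt5a, and medians of 617, 790 and 709 CPM in complete media, QCM and SCM and of 590, 488 and 421 CPM in SCM with anti-Ptk7, Wnt5a and Wnt5a with anti-Ptk7. All QCM libraries lay above all complete media libraries. Rpl32 had medians of 259, 350, 310, 259, 220 and 200 CPM in the same order of groups, with the QCM range of 323 to 398 CPM above that of complete media, 249 to 299 CPM. In Rpl8 and Rpl4 the medians ran from 966 and 754 CPM in QCM to 490 and 481 CPM in Wnt5a with anti-Ptk7, but those of SCM, 734 and 662 CPM, lay below those of complete media, 742 and 691 CPM.

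QCM against complete media asks what media from growth-arrested, non-senescent fibroblasts did to the genes. The members' fitted log2 fold changes were above 0 for 63 of 66, between −0.08 and 0.86 with a median of 0.34, where the median of all genes tested was 0.02 and 54.3% of them were above 0. No member was called at an adjusted p under 0.05, where 0.542% of all genes were called higher and 0.116% lower. At an unadjusted p under 0.05, 29 members (43.9%) were higher and 0 lower, against 7.74% and 4.25% of all genes. For 13 members, 19.7%, every QCM library exceeded every complete media library, which held for 1.19% of all genes. They included Rpl41, Rps19, Rpl32, Rps3, Rpl13a, Rps15, Rpl22, Rps21, Rpl27, Rps10, Rps26 and Rps29, and 7 of the 13 have mostly unique windows.

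The members with the smallest p values were Rplp1 and Rpl41. Rplp1, a protein of the stalk that recruits elongation factors, had 157, 162 and 209 CPM (lowest, median and highest) in complete media and 203, 231 and 263 CPM in QCM, with 1 complete media library among the QCM values (log2 fold change 0.46, SE 0.12, edgeR adjusted p = 0.066). Rpl41, the shortest ribosomal protein, had 24.2, 27.7 and 35.4 CPM in complete media and 40.7, 43.8 and 52.0 CPM in QCM, with no overlap (0.64, SE 0.17, adjusted p = 0.076). The other stalk genes stood at log2 fold changes of 0.35 (Rplp0) and 0.48 (Rplp2). Members near 0 were Rpl3, which helps to shape the peptidyl transferase centre, at −0.08, Rpl5, a component of the 5S particle that can bind Mdm2, at −0.07, and Rpl15 at −0.03. The absence of calls depended on the fit, since DESeq2 called 4 members, a model of these 2 groups alone 11 and the fit with at least 10 counts in every library 1. Over all genes, these fits called 236 of 15497, 175 of 13931 and 101 of 11955, and the model used here 102 of 15497. With the replicate number as a block, Rplp1 and Rpl41 passed the threshold. Leaving out QCM replicate 6 gave 2 calls and leaving out complete media replicate 1 gave 1.

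SCM against complete media asks the same of the senescent secretome. The members were above 0 in 55 of 66 cases with a median log2 fold change of 0.19, against 0.01 for all genes. No member was called, while 7.43% of all genes were called higher and 4.45% lower. At an unadjusted p under 0.05, 11 members (16.7%) were higher and 0 lower, close to the 14.1% of all genes that were higher, with 10.6% of all genes lower. The shift was uneven. The 22 members with a mean under 5 CPM had a median of 0.62 with a median SE of 0.30, and the 44 others a median of 0.16 with a median SE of 0.14.

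The smallest p values were those of the low-count members Rps27a, which is made as a fusion with ubiquitin, and Rps29. Rps27a had 1.11, 1.42 and 2.11 CPM in complete media and 1.76, 2.53 and 5.16 CPM in SCM (log2 fold change 1.02, SE 0.36, adjusted p = 0.062), and Rps29 had 0.858, 0.999 and 1.04 CPM and then 0.876, 1.62 and 4.63 CPM (1.16, SE 0.42, adjusted p = 0.063). The groups overlapped for both. Among members with more counts, Rps3 stood at 0.18, Rpl8 at −0.01 and Rpl4 at −0.09. DESeq2 called 1 member and a model of these 2 groups alone called 3, and 2 were called without SCM replicate 4 and 1 without SCM replicate 5. Over all genes, DESeq2 called 2198 of 15497 and the model of 2 groups 1839 of 14005.

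SCM against QCM compares senescent with quiescent fibroblast media. Here 43 of 66 members were below 0 with a median of −0.10, against −0.01 for all genes, and none was called, where 1.01% of all genes were called higher and 0.710% lower. At an unadjusted p under 0.05, 0 members were higher and 13 (19.7%) lower, against 8.50% and 8.49% of all genes. The members with at least 50% unique windows were below 0 in 12 of 13 cases with a median of −0.22, and the other 53 had a median of −0.03. By level the directions were opposite, with a median of 0.15 and 17 of 22 above 0 among members under 5 CPM, and a median of −0.20 and 38 of 44 below 0 among the others. Rps9, a protein of the small subunit's decoding face, had 216, 254 and 263 CPM in QCM and 173, 205 and 216 CPM in SCM, with no overlap (−0.33, SE 0.10, edgeR adjusted p = 0.070). Rpl13a, which has a further role in silencing inflammatory transcripts, had 43.7, 49.8 and 59.7 CPM in QCM and 32.7, 38.1 and 40.1 CPM in SCM, again without overlap (−0.42, SE 0.13, adjusted p = 0.071). Both passed the threshold under DESeq2 and in a model of these 2 groups alone, where 4 and 2 members were called. Both also passed with the replicate number as a block. Voom with limma called 1, and 1 was called without QCM replicate 6. Over all genes, DESeq2 called 607 of 15497, the model of 2 groups 437 of 14290 and voom with limma 369 of 15497.

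Wnt5a against complete media gave the most calls. In Wnt5a, 16 members fell and 1 rose, and 50 of 66 were below 0 with a median log2 fold change of −0.24, against 0.01 for all genes. The 24.2% of members called lower stand beside 9.40% of all genes, and the 1 called higher (1.52%) beside 12.5%. For 14 members, 21.2%, every Wnt5a library lay below every complete media library, which held for 6.10% of all genes. The 16 were Rpl13a, Rps10, Rps14, Rpl15, Rpl14, Rpl27a, Rps9, Rplp1, Rps25, Rplp0, Rpl8, Rps19, Rps3, Rpl37a, Rpl4 and Rpl18, with falls between 0.28 and 0.71 on the log2 scale, and all had a mean of at least 5 CPM. The 44 members at that level had a median of −0.27 with 40 below 0, whereas the 22 others had a median of 0.03 with 12 above 0.

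Rpl13a fell most. It had 35.1, 39.6 and 41.3 CPM in complete media and 17.7, 23.7 and 27.2 CPM in Wnt5a, a difference of −0.71 (SE 0.13, edgeR adjusted p = 0.00012) that passed the threshold in all 22 alternative fits, including the cutoff of 1.5-fold. Rps10, near the mRNA entry, had 17.5, 19.3 and 20.1 CPM and then 9.27, 13.5 and 15.2 CPM (−0.54, SE 0.13, adjusted p = 0.0019). Neither gene's groups overlapped. Rpl15 had 15.2, 15.5 and 16.7 CPM in complete media and 6.51, 10.7 and 14.6 CPM in Wnt5a (−0.54, SE 0.17, adjusted p = 0.018), and it was not called without Wnt5a replicate 1. Rpl14 had 178, 233 and 265 CPM and then 130, 155 and 183 CPM (−0.54, SE 0.14, adjusted p = 0.0039), with 1 library of each group in the other's range. Rps14 had 140, 174 and 244 CPM and then 89.4, 124 and 154 CPM (−0.54, SE 0.16, adjusted p = 0.013), also with overlap, and it was not called without complete media replicate 1. Unique windows made up 2.49% in Rpl13a, 11.1% in Rps10, 0% in Rpl15, 22.15% in Rpl14, which shares most of its windows with Rpl14-ps1, and 48.65% in Rps14. For all of these, how reads that match other genes too were counted is not given in the sources used here.

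Members with at least 50% unique windows moved the same way. Rps9 had 193, 199 and 226 CPM in complete media and 110, 150 and 157 CPM in Wnt5a (−0.47, SE 0.10, adjusted p = 0.00069). Rpl8, which lies close to the peptidyl transferase centre, had 637, 742 and 916 CPM and then 445, 593 and 628 CPM (−0.39, SE 0.11, adjusted p = 0.0079). Rpl4, whose loop lines the exit tunnel, had 638, 691 and 765 CPM and then 455, 545 and 604 CPM (−0.33, SE 0.08, adjusted p = 0.0029). In these 3 genes the groups did not overlap. All 13 members with at least 50% unique windows were below 0, with a median of −0.29 and 4 calls, and the other 53 had a median of −0.23 and 13 calls.

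Of the P stalk, Rplp0 and Rplp1 fell and Rplp2 did not pass the test. Rplp0, which anchors the stalk to the ribosome, had 76.3, 81.8 and 108 CPM in complete media and 46.4, 64.9 and 77.1 CPM in Wnt5a (−0.39, SE 0.11, adjusted p = 0.0098), and was not called without complete media replicate 1. Rplp1 went from a median of 162 CPM to 129 CPM (−0.43, SE 0.12, adjusted p = 0.0090), and all Wnt5a libraries, up to 141 CPM, lay below the lowest complete media library. Rplp2 stood at 0.07 with a Wnt5a range of 10.9 to 35.5 CPM. Rps19, mutated in Diamond-Blackfan anaemia, had 59.4, 61.8 and 64.0 CPM and then 33.5, 49.2 and 53.1 CPM (−0.36, SE 0.11, adjusted p = 0.015), with no overlap, and was not called without Wnt5a replicate 1. Of 14 tested genes of that disease, 4 fell, 1 rose and 9 were not called, beside the 9.40% and 12.5% of all genes given above. Among the genes that fell was Rpl11, a 5S particle protein below the 1 CPM minimum, with mean CPM of 1.13 and 0.525 (−1.05, SE 0.37, adjusted p = 0.038).

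The 1 member called higher was Rps29, and its call rested on few libraries. It had 0.858, 0.999 and 1.04 CPM in complete media and 0.828, 1.39 and 5.80 CPM in Wnt5a (1.14, SE 0.42, adjusted p = 0.047), with overlap and with Wnt5a replicate 2, the library with the most counts, far above the others. Leaving out that library moved the log2 fold change to 0.51, and the call was lost under 14 of 21 alternatives. The 10 members with no unique window and a mean under 5 CPM summed to 40.6 CPM in the same library and to between 11.2 and 21.4 CPM in the other 5 of Wnt5a. Leaving out complete media replicate 1 left 11 members called, and only Rpl13a and Rps29 of the 17 also changed by more than 1.5-fold.

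**Figure D4:**
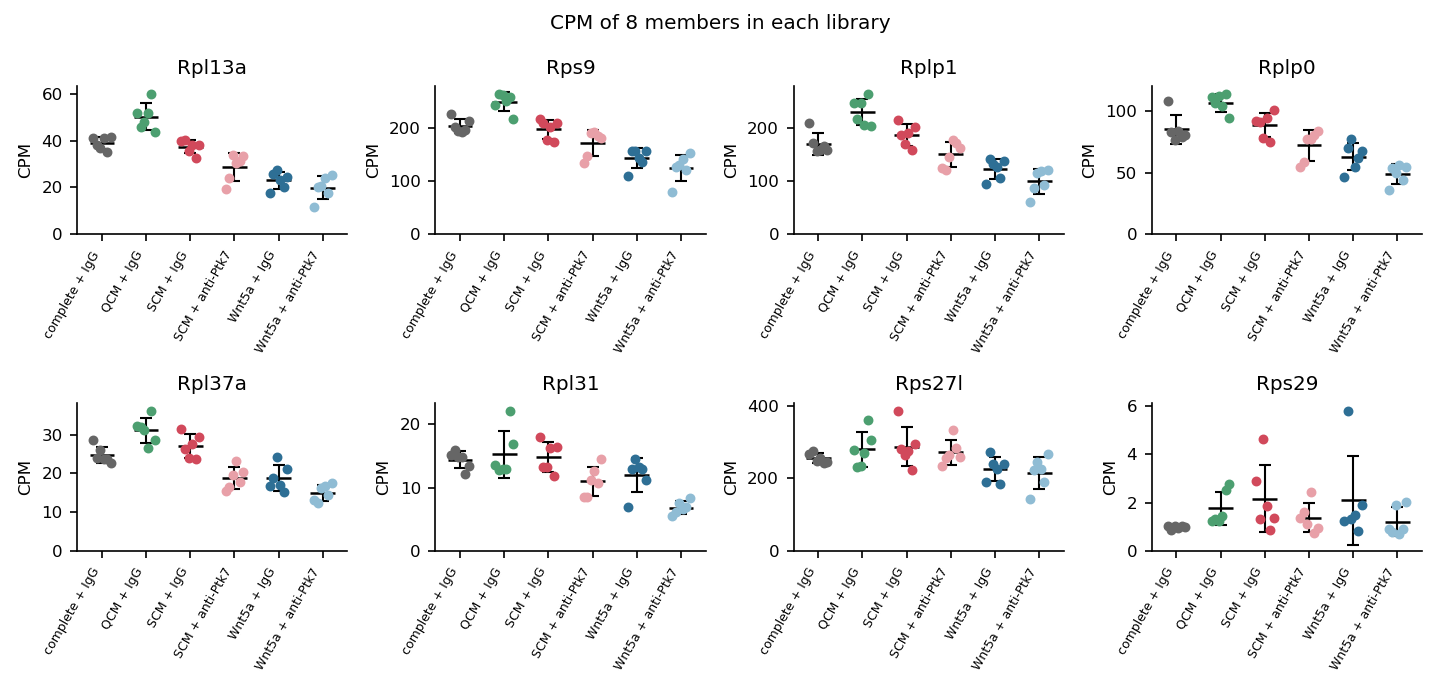
CPM of 8 members in each of the 36 libraries, by group, with lines for the mean and bars for the SD. The first 6 panels show genes called in at least one comparison with Wnt5a or anti-Ptk7, Rps27l is a member with 73.2% unique windows that was called in none of the paired comparisons, and Rps29 shows the single Wnt5a library at 5.80 CPM.

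The p53-induced paralog Rps27l and the fixed members named beside it here varied less clearly or had low counts, unlike Rplp0, Rplp1 and Rps19. Rps27l had 241, 252 and 276 CPM in complete media, 232, 274 and 359 CPM in QCM, 223, 278 and 385 CPM in SCM and 185, 232 and 272 CPM in Wnt5a, all overlapping, and none of its comparisons was called. Rps27, its partner, was below the minimum at 0.626 CPM, as was Rps6, the target of S6 kinase, at 0.622 CPM, and neither has a window of its own. Rpl3l, Rpl39l and Rpl10l, the paralogs known from muscle or testis, had means of 0.0534, 0.00232 and 0 CPM although 100%, 100% and 87.6% of their windows are unique. The X-linked members Rps4x, Rpl10 and Rpl39 had mean CPM between 1.26 and 4.63 and no call in any comparison.

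Anti-Ptk7 in SCM asks what the antibody did in the presence of the senescent secretome. Relative to IgG, 65 of 66 members stood lower with anti-Ptk7, with a median of −0.35 against 0.00 for all genes, of which 49.7% were below 0. Only 2 members (3.03%) were called lower and 0 higher, beside 1.44% and 1.28% of all genes. The 13 members with at least 50% unique windows had a median of −0.23 and 0 calls, and the other 53 a median of −0.39 and both calls. The 22 members under 5 CPM had a median of −0.64 and the 44 others −0.28. Rpl37a, a zinc finger protein of the large subunit, had 23.7, 26.96 and 31.4 CPM with IgG and 15.4, 18.6 and 23.2 CPM with anti-Ptk7, with no overlap (−0.55, SE 0.11, edgeR adjusted p = 0.0050). Rpl7 had 10.1, 12.7 and 14.1 CPM and then 6.66, 8.54 and 10.2 CPM, with 1 IgG library at the level of the highest anti-Ptk7 libraries (−0.53, SE 0.14, adjusted p = 0.030). The member above 0 was Rps4l, the annotated pseudogene, at 0.12. The lowest log2 fold changes, such as Rpl10 at −1.01, belonged to members with few counts that did not pass the test.

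Of the 2 calls, that of Rpl37a held in 20 of 22 alternatives, every one with a library left out included, and that of Rpl7 in 12. A model of SCM alone called 0 members, DESeq2 8, voom with limma 5 and the fit with at least 10 counts in every library 4, while library size alone and no filter each called 1. More members were also called with the replicate number as a block. Over all genes, the model of SCM alone called 124 of 14220, DESeq2 695 and voom with limma 503 of 15497. The fit with at least 10 counts called 431 of 11955, library size alone 378 of 15497 and no filter 237 of 29759. A single member was called without SCM replicate 1, 3 or 6 or SCM with anti-Ptk7 replicate 2, and 4 without SCM replicate 5. The call of Rpl37a was lost in the model of SCM alone and with the 1.5-fold minimum. The median over members lay between −0.39 and −0.30 whichever library was left out.

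Anti-Ptk7 in Wnt5a asks the same in the presence of the ligand. All 66 members stood lower with anti-Ptk7, with a median of −0.33 against 0.01 for all genes, and 4 (6.06%) were called lower and 0 higher, beside 1.52% and 1.05% of all genes. The 13 members with at least 50% unique windows had a median of −0.22 and 0 calls, and the other 53 a median of −0.36 and all 4 calls, so that each gene called shares most of its windows with copies. The 22 members under 5 CPM had a median of −0.49 and the 44 others −0.27. Rpl31, at the rim of the exit tunnel, had 6.86, 12.97 and 14.5 CPM with IgG and 5.48, 6.75 and 8.33 CPM with anti-Ptk7, where the lowest IgG library, replicate 1, fell inside the anti-Ptk7 range (−0.82, SE 0.16, edgeR adjusted p = 0.0029). The call held in all 22 alternatives. Rpsa, also known as the laminin receptor, had 6.51, 8.06 and 10.9 CPM and then 4.50, 5.12 and 6.93 CPM (−0.63, SE 0.16, adjusted p = 0.024). Rpl18 had 28.6, 29.7 and 33.6 CPM and then 17.1, 26.5 and 28.5 CPM, with no overlap (−0.31, SE 0.08, adjusted p = 0.035). Rps19 had 33.5, 49.2 and 53.1 CPM and then 22.3, 38.8 and 42.4 CPM (−0.39, SE 0.11, adjusted p = 0.048).

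Fewer members were called in several other fits of this comparison, and more with DESeq2 and with the replicate number as a block. A model of the Wnt5a groups alone and the fit without a filter each called 1, library size alone and upper-quartile scaling 2, and DESeq2 8. Over all genes, the model of these groups called 206 of 14316 and the fit without a filter 247 of 29759. Library size alone called 341, upper-quartile scaling 376 and DESeq2 645 of 15497. With libraries left out, 1 member was called without Wnt5a replicate 3, 2 without Wnt5a replicate 2, 4 or 6 or Wnt5a with anti-Ptk7 replicate 1, 2 or 5, and 7 without Wnt5a with anti-Ptk7 replicate 6. Rps19 and Rpl18 were lost in 15 and 10 of 22 alternatives.

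The fixed members not called in either comparison gave the following log2 fold changes with anti-Ptk7. The stalk genes Rplp0, Rplp1 and Rplp2 stood at −0.32, −0.34 and −0.41 in SCM and at −0.38, −0.32 and −0.35 in Wnt5a. Rpl5 had a median of 18.1 CPM in SCM and 11.7 CPM with the antibody (−0.55), and 13.8 CPM in Wnt5a and 9.23 CPM with it (−0.52), overlapping in both. Rpl3 stood at −0.39 and −0.22, and Rps27a at −0.72 and −0.44. The smallest values among the fixed members were those of Rps27l, −0.10 and −0.08.

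The antibody's effects in SCM and in Wnt5a use different libraries, and the difference between them was tested as an interaction. Its median over members was 0.01, 35 members were above and 31 below 0, and no member had an unadjusted p under 0.05, against 1.75% of all genes higher and 2.14% lower. At an adjusted p under 0.05, 0% of all genes were called in either direction. Among the smallest p values was that of Rpl31 (−0.37, SE 0.22, edgeR adjusted p = 1.00). This leaves differences of the size of this standard error undetectable, so a p above the threshold does not show that the effects were equal.

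**Figure D5:**
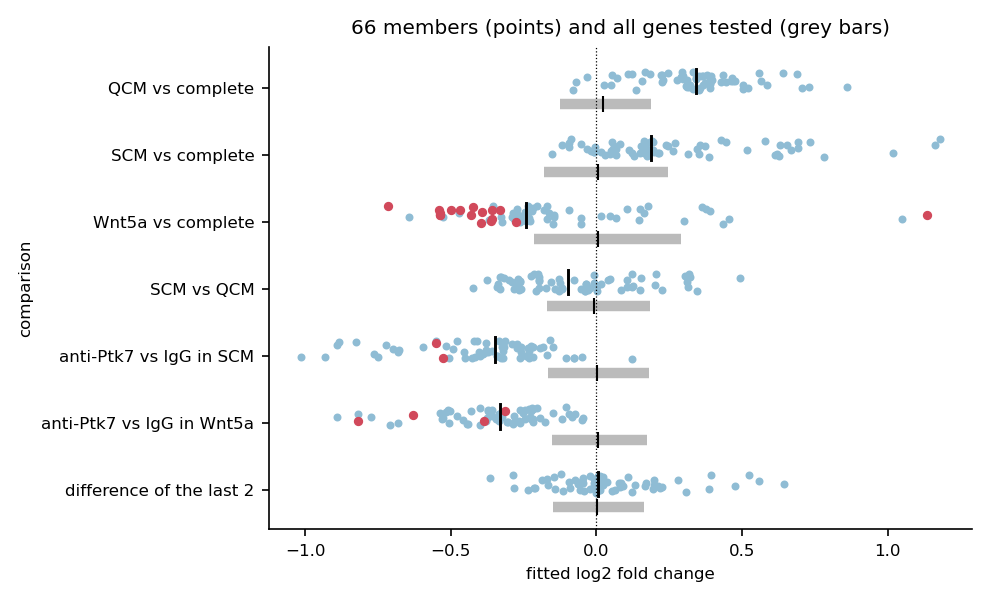
Fitted log2 fold changes of the 66 members (points, red where the adjusted p was under 0.05) in the 7 comparisons, with the members' median as a vertical line, and the interquartile range and median of all 15497 genes tested as a grey bar and tick. The members' medians lay at 0.34 in QCM, −0.24 in Wnt5a and −0.35 and −0.33 with anti-Ptk7, and the medians of all genes between −0.01 and 0.02.

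Of the ribosomal proteins that the symbol rule leaves out, only Rack1 was called. It is a scaffold on the small subunit, with a mean of 855 CPM in complete media, and fell in Wnt5a (−0.34, SE 0.09, edgeR adjusted p = 0.0078), with anti-Ptk7 in SCM (−0.35, adjusted p = 0.034) and with anti-Ptk7 in Wnt5a (−0.35, adjusted p = 0.036). Of all genes, 9.40%, 1.44% and 1.52% fell in the same comparisons. The other 5 of these 6 genes were called in none of the 7 comparisons, and the 6 had a median of 0.02 in Wnt5a. All 18 pseudogenes that were tested had log2 fold changes below 0 with anti-Ptk7, with medians of −0.31 in SCM and −0.30 in Wnt5a and none called. Other TOP genes of translation had medians of −0.31 and −0.25 with anti-Ptk7, with all 20 below 0 in both. Of these, Eif3k (−0.31) and Eef1g (−0.43) were called with anti-Ptk7 in SCM, beside 1.44% of all genes. In Wnt5a against complete media Eef1d (−0.29) was called, 1 of 20 beside 9.40% of all genes.

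Mitochondrial ribosomal protein genes belong to the ribosomes inside mitochondria. Of 77 tested, 48 (62.3%) fell and 0 rose in Wnt5a, where 9.40% of all genes fell, with a median of −0.33, for example Mrpl12 (−0.61, adjusted p = 0.00043) and Mrps27 (−0.61, adjusted p = 6.3e-05). With anti-Ptk7, their medians were −0.12 in SCM and −0.09 in Wnt5a, with 2 (2.60%) called lower in each, beside 1.44% and 1.52% of all genes. In QCM, 72 of 77 were above 0 with a median of 0.14. The difference between these genes and the cytosolic set was not tested.

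Of 40 ribosome biogenesis factors, 9 (22.5%) fell with anti-Ptk7 in Wnt5a, where 1.52% of all genes fell, among them the nucleolar protein Ncl (−0.47, adjusted p = 0.0055), Nhp2 (−0.39, adjusted p = 0.013) and Rrp9 (−0.39, adjusted p = 0.019). Their log2 fold changes were below 0 for 37 of 40 in both antibody comparisons and for 35 of 40 in Wnt5a. Against complete media, 5 fell in Wnt5a, where 9.40% of all genes fell, and 4 fell and 2 rose in SCM, beside 4.45% and 7.43% of all genes. With anti-Ptk7 in SCM 2 fell, beside 1.44% of all genes, and edgeR called 0 in QCM, as it called 0 members there. Of the 15 genes of RNA polymerase I and its factors, Polr1b fell in SCM (−0.41, adjusted p = 0.0062) and Cd3eap with anti-Ptk7 in Wnt5a (−0.53, adjusted p = 0.011), beside 4.45% and 1.52% of all genes. In the Myc network, 3 of 10 genes rose in Wnt5a and 1 fell, beside 12.5% and 9.40% of all genes. Myc rose in Wnt5a (0.63, adjusted p = 0.011), Mycn rose from 1.059 to 15.01 CPM (3.85, adjusted p = 1.0e-08) and Mxd1, a Myc antagonist, rose from 43.7 to 164 CPM (1.97, adjusted p = 0.00010). Of 19 mTORC1 genes, Eif4ebp1, a repressor of cap-dependent translation, fell with anti-Ptk7 in SCM (−0.45, adjusted p = 0.0054) and in Wnt5a (−0.51, adjusted p = 0.0018). Larp1 fell with the antibody in Wnt5a (−0.32, adjusted p = 0.033). These were the only calls of the list for the antibody, 1 of 19 in SCM and 2 of 19 in Wnt5a, beside 1.44% and 1.52% of all genes. Against complete media, 4 of the 19 fell in SCM, where 4.45% of all genes fell, and 4 fell and 1 rose in Wnt5a, beside 9.40% and 12.5%, among them Rragd (−0.61, adjusted p = 0.016) and Sesn2 (−0.59, adjusted p = 0.00010). Of the 14 p53 targets, Cdkn1a rose in SCM (0.52, adjusted p = 0.0071) and Perp rose in SCM (0.63, adjusted p = 1.8e-05) while 1 fell, beside 7.43% and 4.45% of all genes. In Wnt5a 4 fell, such as Gdf15 (−0.88, adjusted p = 0.0030), and 1 rose, beside 9.40% and 12.5%.

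Markers of cell state moved with some of these differences. Proliferation genes, 10 listed and all tested, summed to 2522 to 2808 CPM in complete media, 2349 to 2527 CPM in QCM, 2042 to 2385 CPM in SCM, 2107 to 2533 CPM in Wnt5a and 1507 to 2332 CPM in Wnt5a with anti-Ptk7, so that QCM had the higher ribosomal protein share with the lower sum. Paneth cell genes summed to 4416 to 5179 CPM in QCM, 3793 to 4317 CPM in complete media and 1597 to 3668 CPM in Wnt5a with anti-Ptk7. Single genes of that list differed in direction, since in Wnt5a against complete media 2 of 5 rose, Ang4 (log2 fold change 0.85) and Mmp7 (0.89), and 2 fell, beside 12.5% and 9.40% of all genes. Crypt base stem cell genes summed to means of 2047 CPM in complete media, 1965 CPM in QCM, 1596 CPM in SCM, 1630 CPM in Wnt5a and 1477 CPM in Wnt5a with anti-Ptk7. Of the 5, Smoc2 fell in SCM (log2 fold change −0.77) and Wnt5a (−0.67) against complete media, beside 4.45% and 9.40% of all genes. Ascl2 rose in both (0.51 and 0.41), beside 7.43% and 12.5% of all genes. Enterocyte genes summed to 956 to 1629 CPM in complete media, 1440 to 1896 CPM in QCM, 1587 to 2251 CPM in SCM and 958 to 1833 CPM in Wnt5a. Of the 6, 3 were called higher in QCM, 4 in SCM and 3 in Wnt5a, beside 0.542%, 7.43% and 12.5% of all genes. Tuft cell genes summed to 8.33 to 12.3 CPM in complete media and 20.96 to 33.96 CPM in Wnt5a, without overlap, with 3 of 5 called higher beside 12.5% of all genes. Epithelial genes summed to 8508 to 11449 CPM in complete media and 12437 to 19099 CPM in SCM, where the ribosomal protein share overlapped that of complete media. They summed to 14713 to 25331 CPM in Wnt5a and 13800 to 28964 CPM in Wnt5a with anti-Ptk7. In the library of Wnt5a with anti-Ptk7 that had the lowest ribosomal protein share, 0.219%, the TMM factor was 0.908, the lowest of the 36. Wnt5a replicate 1, with the lowest share of the Wnt5a group, 0.322%, had the next lowest factor, 0.9255. Its 10 genes with most counts took 5.40% of the library, the highest value of the 36. Fibroblast genes summed to at most 7.56 CPM outside the Wnt5a groups and to 9.46 to 56.8 CPM in them, mostly from Fn1, which was called higher in Wnt5a. With anti-Ptk7, Lyz1 (1 of 5 Paneth genes), Alpi (1 of 6 enterocyte genes) and Cck (1 of 6 enteroendocrine genes) were called lower in SCM and in Wnt5a. Their list medians were −0.37 and −0.33, 0.02 and −0.13, and −0.18 and −0.005. Cdk1, 1 of 10 proliferation genes, was called lower in Wnt5a only. The other marker lists had no call with the antibody, and 1.44% and 1.52% of all genes were called lower. The part of these markers in the members' differences was not tested.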

How the data were processed

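Total RNA of intestinal organoids was sequenced in 36 libraries with single-end reads of 50 bases. The authors aligned reads to mouse build mm10 with GSNAP through HTSeqGenie, counted those within coding sequences, and deposited whole-number counts per Ensembl gene without normalization. The annotation, the use of strand and the treatment of reads that match several places are not given in the sources used here.

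Symbols, positions and coding sequences came from GENCODE M21 (GRCm38), which named 52489 of 52636 identifiers. Groups and replicate numbers were taken from the labels. Members and gene lists were chosen with earlier results of these data known, so lists are described by counts and medians without a test. Genes were filtered with filterByExpr, scaled by TMM and tested with edgeR 4.0.16 (glmQLFit and glmQLFTest, R 4.3.3) in one model of 6 group means, and called at a Benjamini-Hochberg adjusted p under 0.05 over 15497 genes. No fold-change minimum was set. Standard errors were derived from the log2 fold change and the F statistic. Levels are CPM of the whole library. Windows of 50 bases were matched exactly on the same strand to the transcripts of other genes.

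Members named are, per comparison, up to 5 called higher and 5 called lower with the largest change, or the 2 smallest p values where none was called, and fixed members (stalk, 5S particle, paralog pairs such as Rpl3 and Rpl3l, X-linked genes, Rps6, Rpsa, Rps27a and Rps19). Rps9, Rpl8, Rpl4, Rps3 and others named for their unique windows were chosen after their values were seen, as were the splits at 50% unique windows and 5 CPM. Alternatives included DESeq2 1.42.0, voom with limma 3.58.1, other scalings and filters, a block for the replicate number, and each library left out. The test was checked on simulated data. Values of some single members are not reported here. Libraries held 9581589 to 21029769 counts. No 2 libraries of a group agreed within sampling noise (chi-square per gene of at least 7.21 over 90 pairs).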

Additional observations from a re-analysis of the deposited data

Results flagged for a closer look

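Among the 108 groups of 6 values examined, 7 values stood far from the other 5 libraries of their group (Dixon's gap over range above its 95% critical value), where chance flags about 1 in 20 groups. Complete media replicate 1 was the high one in 4 of them. Its ribosomal protein share was 0.602%, against 0.495% to 0.529% in the others, with Rplp0 at 108 CPM (76.3 to 84.0), Rplp1 at 209 CPM (157 to 172) and Rpsa at 14.7 CPM (8.49 to 10.7). Rps29 reached 5.80 CPM in Wnt5a replicate 2 (0.828 to 1.90). Rpl15 reached 22.6 CPM in QCM replicate 6 (10.9 to 15.1). Rpl41 reached 47.4 CPM in SCM with anti-Ptk7 replicate 4 (25.4 to 32.5).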

How the results depend on the processing

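The median log2 fold change of the members stayed within the spread between libraries (SD 0.196) in all 173 alternatives for the 7 comparisons, and no called result was reversed. That spread is wider than the medians for SCM against QCM (−0.10) and SCM against complete media (0.19), so staying within it says little about those 2. Leaving out 1 library moved the median for SCM against QCM to between −0.16 (without SCM replicate 3) and −0.04 (without QCM replicate 5), for SCM against complete media to 0.11 (without SCM replicate 1) and for anti-Ptk7 in Wnt5a from −0.33 to −0.21 (without Wnt5a replicate 2). This included centring on genes of like length or abundance. The median of the antibody's difference, 0.01, took both signs, between −0.06 and 0.14 with 1 library left out. The count of members called in any group was between 46 and 55 in all 44 alternatives. Counts of calls in single comparisons were less stable. For QCM against complete media the count of 0 became 4 (DESeq2), 1 (at least 10 counts in every library) and 11 (only the groups compared). For SCM against complete media it became 1 (DESeq2) and 3 (only the groups compared). For SCM against QCM it became 4 (DESeq2), 1 (voom with limma) and 2 (only the groups compared). A fold change over 1.5 in addition left 2 of 17 in Wnt5a, 0 of 2 for anti-Ptk7 in SCM and 2 of 4 for anti-Ptk7 in Wnt5a. For anti-Ptk7 in SCM the count was 8 (DESeq2), 1 (library size alone), 5 (voom with limma), 1 (no filter), 4 (at least 10 counts) and 0 (only the groups compared). For anti-Ptk7 in Wnt5a it was 8 (DESeq2), 2 (upper-quartile), 2 (library size alone), 1 (no filter) and 1 (only the groups compared). Calls over all genes under these fits, the fold-change minimum aside, are given with each comparison above. The causes were not tested. Leaving out one library gave 0 to 2 calls for QCM, 0 to 2 for SCM and 11 to 20 for Wnt5a against complete media, 0 to 1 for SCM against QCM, and 1 to 4 and 1 to 7 for anti-Ptk7 in SCM and in Wnt5a. The share of counts rose to 0.572% in complete media and 0.701% in QCM with pseudogenes added.

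Libraries with the same replicate number deviated together only in part. The mean correlation of their deviations from the group means was 0.0920 against −0.0180 for different numbers, and 34 of 90 pairs exceeded 0.1, so the numbers were not taken as pairing. This does not show that the numbers are unpaired. The calls above come from fits without a block, which called fewer members in the comparisons given below. The study names 6 mice, and no label used here says whether a replicate number is a mouse. Of the 36 libraries, 16 correlated best, on average, with their own number in the other groups. With the replicate number as a block, 3 members were called in QCM against complete media, 3 in SCM against QCM, 6 for anti-Ptk7 in SCM and 7 for anti-Ptk7 in Wnt5a. Rplp1 and Rpl41 passed in the first and Rps9 and Rpl13a in the second. Over all genes the block moved the calls from 102 to 399 in QCM against complete media, from 267 to 1201 in SCM against QCM, from 422 to 1030 for anti-Ptk7 in SCM and from 398 to 738 for anti-Ptk7 in Wnt5a. The ribosomal protein share was lower with anti-Ptk7 in 5 of 6 same-numbered libraries in SCM and in 6 of 6 in Wnt5a. Low counts limit the members under 5 CPM, whose median SE was 0.30 against 0.14 for the others.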
